A study of Mus musculus with 9 samples.

Results

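The 10 genes described here encode enzymes of glycolysis, from the hexokinases Hk1 and Hk2, which take up glucose into the pathway, to the lactate dehydrogenase subunit Ldha, which ends it. They were chosen by symbol as Hk1, Hk2, Gpi1, Pfkl, Aldoa, Tpi1, Pgk1, Eno1, Pkm and Ldha, and each matched exactly 1 of the 59445 features of the deposited gene table. RNA was sequenced from liver macrophages of male C57BL/6 mice, sorted for F4/80 and CD11b out of the non-parenchymal cells. The mice had been given 1 dose of CCl4 (carbon tetrachloride, which injures hepatocytes) into the peritoneum 24 hours earlier, labelled as 0.6 mg/kg. Mgll encodes monoacylglycerol lipase (MAGL), an enzyme that breaks down monoacylglycerols, among them an endocannabinoid. The 5 libraries S8 to S12 carry the genotype label MAGL Mye-/-, in a series on MAGL deficiency in liver macrophages, and the 4 libraries S1 and S3 to S5 carry the label MAGL fl/fl, given there as the wild type. Both groups received CCl4, and libraries from uninjured livers were not analysed here. Of the Mye-/- libraries, 3 are labelled 10 weeks old (S9, S10 and S11) and 2 are labelled 11 weeks old (S8 and S12), as are all 4 fl/fl libraries. Neither the Cre driver nor the deleted part of Mgll is stated in the labels.

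Glycolysis converts glucose to pyruvate in the cytosol. Hexokinase, phosphofructokinase and pyruvate kinase catalyse its practically irreversible steps, where the flux is mostly set, and the remaining enzymes work near equilibrium. When lactate dehydrogenase reduces pyruvate to lactate, NAD+ is restored and the pathway can run without mitochondrial respiration. Macrophages activated by microbial products raise glycolysis, and several of these genes are classical targets of hypoxia-inducible factor 1 (HIF-1), a transcription factor that is stabilised at low oxygen and in inflamed tissue. The comparison asks how macrophages labelled as lacking MAGL differ in these transcripts from control macrophages during acute liver injury.

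The libraries held 33383559 to 46489349 reads. Values are normalized reads, that is read counts divided by 1 size factor per library, without correction for gene length. All 8 macrophage markers listed passed the filter on low values, at least 10 normalized reads in at least 4 libraries. Itgam, which encodes CD11b, averaged 49711 in Mye-/- and 48739 in fl/fl, and Adgre1, which encodes F4/80, averaged 6443 in Mye-/- and 5433 in fl/fl. Lyz2, the lysozyme gene of myeloid cells, shares its feature with Lyz1. That feature had 143570.0 to 204782 normalized reads in Mye-/- and 221530.0 to 422118 in fl/fl, so its groups did not overlap. All Mye-/- values lay below all fl/fl values in 1.6% of the features tested and in 3.17% of those with a mean of at least 1000. The Lyz2 feature did not pass the test (limma adjusted p = 0.22). Mgll itself had 30.4, 46.6, 5.93, 42.7 and 0 normalized reads in Mye-/- S8 to S12 and 18.6, 0, 106 and 22.8 in the fl/fl libraries (S1 and S3 to S5), too few reads to check the labels. The fl/fl library S3 stood apart: mitochondrial transcripts took 9.45% of its reads, against 3.93% to 7.09% in Mye-/- and 3.49% to 6.71% in the other fl/fl libraries, and it held 11962 normalized reads of the haemoglobin gene Hba-a1. In bulk RNA of a sort, a lower level can mean fewer cells with the transcript or less transcript per cell, and these cannot be told apart.

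Divided by exon length (GENCODE M21 basic transcripts), the transcripts covered a wide range, with the pyruvate kinase gene Pkm at the top and the hexokinases at the bottom. Pkm stood at 38275 ± 2886 normalized reads per kb in Mye-/- (SD, n = 5) and 45815 ± 7739 in fl/fl (SD, n = 4). Ldha followed, at 17436 ± 2259 per kb in Mye-/- and 21623 ± 4537 in fl/fl, and Aldoa was at 16788 ± 1644 per kb in Mye-/- and 20057 ± 3551 in fl/fl. Ldha and Aldoa did not differ in level beyond their spread, since Ldha was the higher in 2 of 5 Mye-/- and 3 of 4 fl/fl libraries. Eno1 (10647 per kb in Mye-/- and 14311 in fl/fl), Pgk1 (7212 per kb in Mye-/- and 9987 in fl/fl), Gpi1 (5164 in Mye-/- and 5887 in fl/fl) and Tpi1 (4486 in Mye-/- and 5422 in fl/fl) came next. At the low end, Pfkl had 1726 ± 71.5 per kb in Mye-/- and 2134 ± 738 in fl/fl, Hk1 had 889 ± 84.7 in Mye-/- and 1153 ± 199 in fl/fl, and Hk2 had 678 ± 76.1 in Mye-/- and 776 ± 312 in fl/fl. The ranges of Hk1 and Hk2 overlapped in both groups, as did those of Gpi1 and Tpi1. Within libraries, Hk1 was above Hk2 in 5 of 5 Mye-/- and 4 of 4 fl/fl libraries, and Gpi1 above Tpi1 in 5 of 5 and 3 of 4. In fl/fl alone, the ranges of Aldoa and Eno1, Eno1 and Pgk1, Pgk1 and Gpi1, and Pfkl and Hk1 overlapped as well. The order of the group means was the same in Mye-/- and fl/fl. With the exons of all annotated transcripts as the length, Aldoa moved above Ldha, Pgk1 above Eno1, Tpi1 above Gpi1 and Hk2 above Hk1, so these neighbouring ranks rest on the gene model.

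All 10 genes passed the filter on low values and all 10 had a lower mean in Mye-/- macrophages, but none passed the test over all features. The number called was 0 of 10, where limma called 0.0196% of the 15288 features tested (Benjamini-Hochberg adjusted p under 0.05, either direction) and 0% as lower. At an unadjusted p under 0.05, Eno1, Hk1 and Pgk1 were lower and none was higher, where 4.13% of all features, and 8.46% of the 5203 features with a mean of at least 1000 normalized reads, were lower at that level. A log2 fold change below 0, seen for 10 of 10 genes, was found for 45.4% of all features and for 51.9% of the features with such a mean. The median log2 fold change (Mye-/- minus fl/fl, of log2(normalized reads + 1)) was -0.24 over the 10 genes, 0.06 over all features and -0.01 over those with a mean of at least 1000. In no gene were all 5 Mye-/- values below all 4 fl/fl values, a separation that 1.6% of all features showed.

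**Figure D1:**
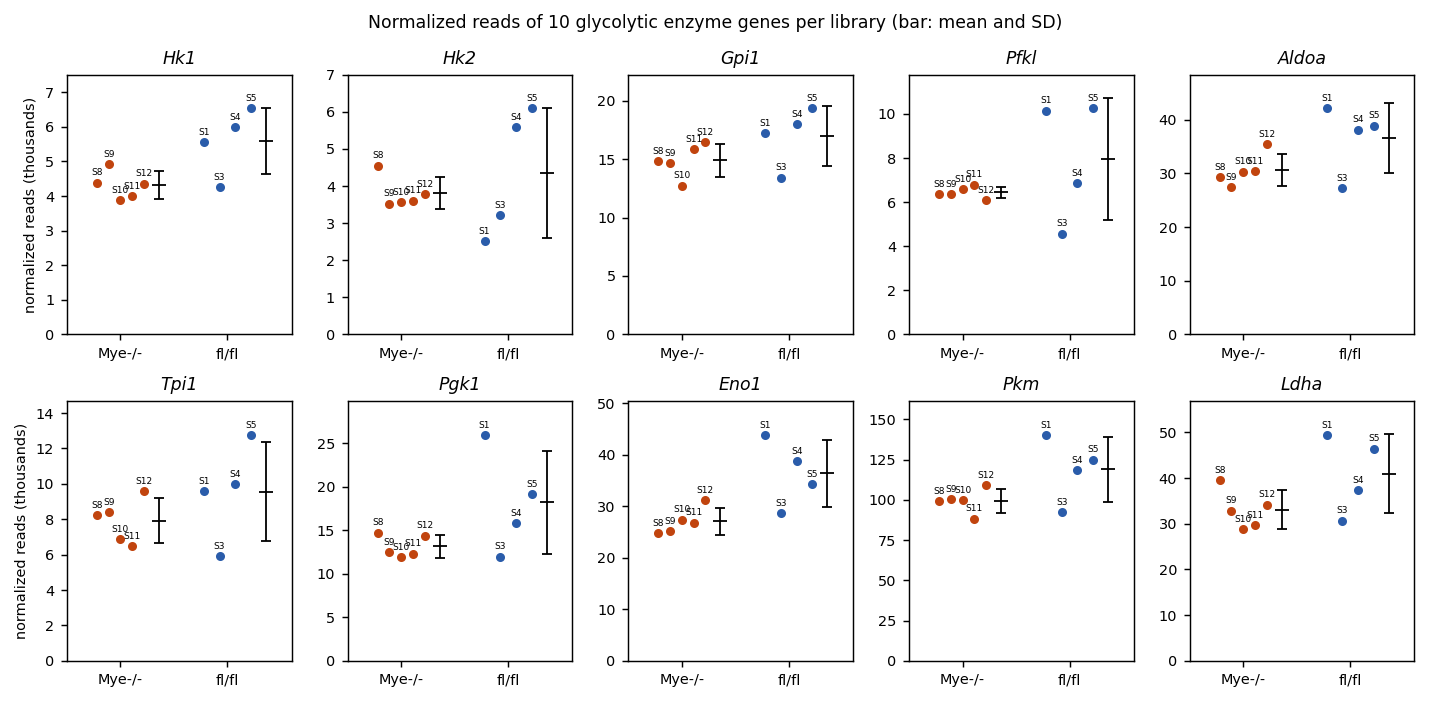
Normalized reads (in units of 1000, linear axes from 0) of the 10 glycolytic enzyme genes, 1 point per library, with Mye-/- (n = 5) on the left and fl/fl (n = 4) on the right; the bar beside each group is its mean and SD. Mye-/- libraries sit close together, while fl/fl libraries are spread widely, with S3 at or near the bottom of its group in each gene.

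The first step is split between several hexokinases, which trap glucose in the cell as glucose 6-phosphate. Hk1 (chromosome 10, 62268855 to 62379908, mm10, minus strand), the housekeeping form, had 4392, 4931, 3879, 4003 and 4362 normalized reads in Mye-/- S8 to S12, against 5571, 4268, 6000.4 and 6534 in fl/fl S1 and S3 to S5. All Mye-/- values lay below 3 of the fl/fl values, and S3 lay within the Mye-/- range. The log2 fold change of Hk1 was -0.36 ± 0.15 (SE, limma adjusted p = 0.405). Hk2 (chromosome 6, 82725029 to 82774454, minus strand), the inducible form, had 4553, 3527, 3575, 3605 and 3773 in Mye-/-, against 2523, 3219, 5598 and 6092 in fl/fl. The Mye-/- values fell between the lower and the upper fl/fl pair, so the groups overlapped completely. Its log2 fold change was -0.11 ± 0.21 (SE, adjusted p = 0.891), with a 95% interval of -0.55 to 0.34.

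Gpi1 (chromosome 7, 34201327 to 34230336, minus strand) interconverts glucose 6-phosphate and fructose 6-phosphate. It had 14804, 14683, 12728, 15825 and 16425 normalized reads in Mye-/-, against 17211, 13406, 17967 and 19329.9 in fl/fl. Again only S3 among the fl/fl libraries lay inside the Mye-/- range, and the log2 fold change was -0.18 ± 0.14 (SE, limma adjusted p = 0.667). Pfkl (chromosome 10, 77986951 to 78009807, minus strand) encodes the liver-type subunit of phosphofructokinase, the enzyme of the committed step. Its 6376, 6359.6, 6578, 6795 and 6081 normalized reads in Mye-/- were nearly equal, against 10152, 4572, 6860.2 and 10249.6 in fl/fl. The highest Mye-/- value was 1.12 times the lowest, whereas the fl/fl values spanned 2.24 times, and the log2 fold change was -0.23 ± 0.19 (SE, adjusted p = 0.701).

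Aldolase and triosephosphate isomerase form the triose phosphates, and phosphoglycerate kinase makes the first ATP of the pathway. Aldoa (chromosome 7, 126795234 to 126800447, minus strand) had 29327, 27422, 30349, 30486 and 35518 normalized reads in Mye-/-, against 42099.7, 27216, 38136 and 38886 in fl/fl. Tpi1 (chromosome 6, 124810592 to 124814296, minus strand) had 8245, 8389.7, 6861, 6464 and 9610.3 in Mye-/-, against 9575, 5914, 9990.5 and 12777 in fl/fl. In both genes fl/fl S3 was the lowest of all 9 libraries, and in Tpi1 fl/fl S1 was also below Mye-/- S12. The log2 fold changes were -0.24 ± 0.15 for Aldoa and -0.24 ± 0.18 for Tpi1 (SE, limma adjusted p = 0.573 and 0.684). Pgk1 (chromosome X, 106187100 to 106208128, plus strand) had 14724, 12518, 11873, 12319.5 and 14376 in Mye-/-, against 25979, 11977, 15835 and 19114 in fl/fl. Here fl/fl S1 was far above every other library. The mean was 13162 ± 1294 in Mye-/- (SD, n = 5) and 18226 ± 5935 in fl/fl (SD, n = 4), and the log2 fold change of -0.42 ± 0.18 (SE, adjusted p = 0.421) shrank to -0.23 without S1.

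The lower end of the pathway held Pkm, the most abundant transcript of the 10 per kb. Eno1 (chromosome 4, 150237197 to 150248875, plus strand), the enolase of most non-neuronal cells, had 24807, 25179.6, 27428, 26833 and 31293 normalized reads in Mye-/-, against 43926, 28706, 38743 and 34363 in fl/fl. In 4 of 5 Mye-/- libraries Eno1 was below every fl/fl library, and only S12 exceeded fl/fl S3. Its log2 fold change of -0.41 ± 0.14 (SE, 95% interval -0.71 to -0.11) had the smallest limma p of the 10 genes (adjusted p = 0.329). DESeq2 on the whole reads called Eno1 as lower (adjusted p = 0.0486), the single member it called, where it called 1.14% of the 5801 features with an adjusted p as lower. That call was lost without DESeq2's independent filtering (adjusted p = 0.081). Pkm (chromosome 9, 59656368 to 59679375, plus strand), whose M2 splice form is the usual one in macrophages, had 99181, 100582, 99958, 88278 and 109381 in Mye-/-, against 140468, 92241, 118530.0 and 125049 in fl/fl. Its splice forms share 1 feature and could not be separated. Ldha (chromosome 7, 46845804 to 46855626, plus strand) had 39616, 32864, 28786, 29775 and 34167 in Mye-/-, against 49476, 30659.8, 37333 and 46436 in fl/fl. Both had fl/fl S3 within the Mye-/- range, and in Ldha fl/fl S4 was within it too. The log2 fold changes were -0.25 ± 0.16 for Pkm and -0.29 ± 0.16 for Ldha (SE, limma adjusted p = 0.617 and 0.528).

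**Figure D2:**
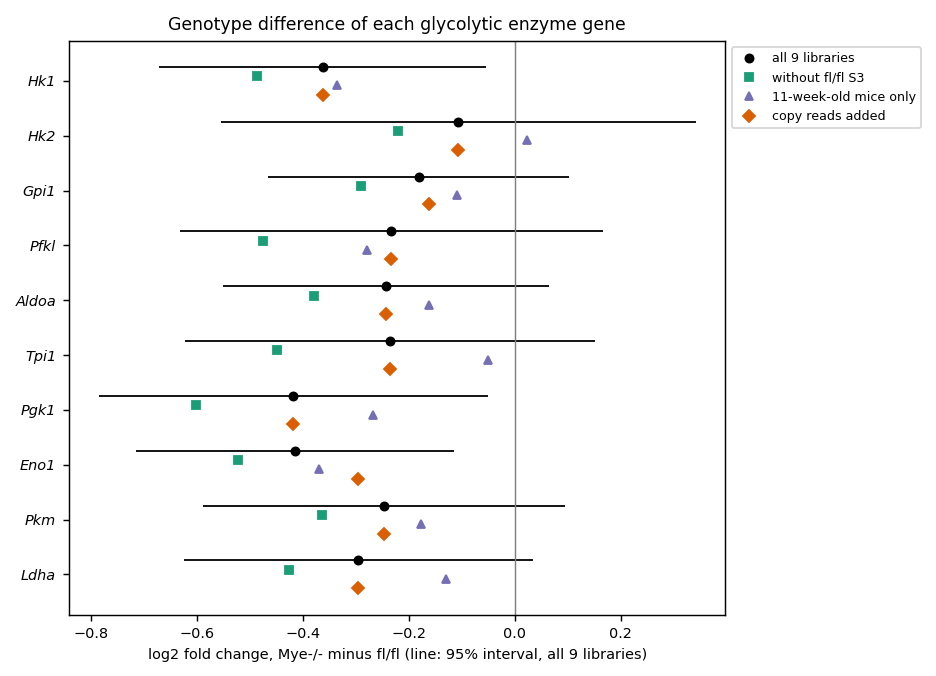
Log2 fold change of each gene, Mye-/- minus fl/fl, with its limma 95% interval over all 9 libraries (black), and the same value without fl/fl S3 (green), among 11-week-old mice only (purple) and with the reads of near-identical copies added (orange). The intervals of Hk1, Pgk1 and Eno1 lie below 0 before adjustment; without S3 every value lies further from 0, and among 11-week-old mice Hk2 lies at 0.02.

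The size of the difference depended on single fl/fl libraries and on covariates. In fl/fl S3, 9 of the 10 genes had their lowest fl/fl value. Without S3, the median log2 fold change was -0.44 over the 10 genes and 0.03 over all features (smallest limma adjusted p of the 10 genes = 0.25, 0 called). Without fl/fl S1 and S3 together, left out after their values had been seen, the median was -0.40 over the 10 genes and 0.02 over all features (0 called). With the number of features detected per library as a covariate, also added after seeing the data, it was -0.48 over the 10 genes and -0.002 over all features (0 called). Without fl/fl S5, Pfkl was at -0.086 and Tpi1 at -0.078, and without fl/fl S1, Pfkl was at -0.091. With age as a covariate, or among the 11-week-old mice alone (2 Mye-/- and 4 fl/fl libraries), the median was -0.17 and 0 genes had an unadjusted p under 0.05. The 10 genes together took 0.614%, 0.633%, 0.637%, 0.589% and 0.722% of all reads in Mye-/- S8 to S12, against 0.896%, 0.539%, 0.789% and 0.827% in fl/fl S1 and S3 to S5. The share of mitochondrial transcripts and the haemoglobin reads were highest in S3, where the glycolytic share was lowest, and their part in the result was not tested.

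All 10 genes varied more among fl/fl than among Mye-/- libraries. On the log2 scale the median SD over the 10 genes was 0.14 in Mye-/- and 0.30 in fl/fl, compared with 0.22 in Mye-/- and 0.29 in fl/fl over the features with a mean of at least 1000. The fl/fl SD was the larger in 10 of 10 genes, in 65.8% of all features and in 68.5% of features with a mean of at least 1000. Pfkl (0.06 in Mye-/- and 0.55 in fl/fl), Hk2 (0.15 in Mye-/- and 0.62 in fl/fl) and Pgk1 (0.14 in Mye-/- and 0.47 in fl/fl) had the widest gap. Equality of the spread was not tested.

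**Figure D3:**
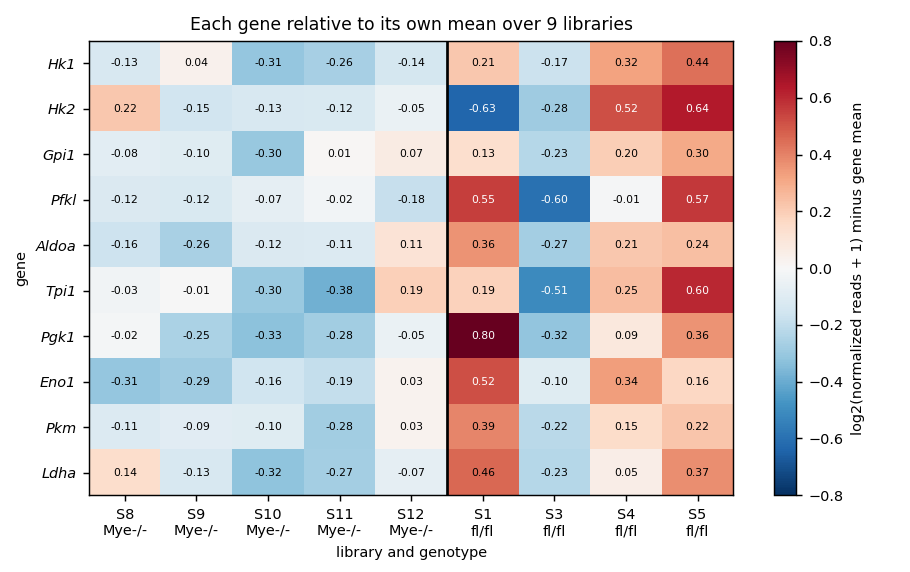
Log2(normalized reads + 1) of each gene minus its mean over the 9 libraries, with Mye-/- libraries left of the black line and fl/fl libraries right of it; red is above and blue below the gene's own mean. S5 is red in all 10 genes and S3 blue in all 10, while S1 is red in 9 and blue in Hk2.

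Near-identical copies of 2 of the genes elsewhere in the genome had counts of their own. In a BLAST search of the 10 transcripts against GENCODE M21 (at least 95% identity over at least 300 bases), Eno1b, a retrotransposed enolase gene, matched Eno1 at 99.5% over 1736 bases, and Gm1840, a processed pseudogene, matched Gpi1 at 98.7% over 1046 bases. Further hits to Eno1, and all hits to Tpi1, Pgk1, Pkm and Ldha, matched no feature of the table, and Hk1, Hk2, Pfkl and Aldoa had none. To show how little separates such a pair, 60 bases inside the reading frame of Gpi1 (transcript bases 760 to 819) are given with the aligned bases 392 to 451 of Gm1840, both 5′ to 3′ from GENCODE M21 on GRCm38, with the differing bases in capitals.
Gpi1: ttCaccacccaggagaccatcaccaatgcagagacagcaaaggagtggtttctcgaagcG
Gm1840: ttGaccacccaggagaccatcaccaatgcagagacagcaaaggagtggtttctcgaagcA
The stretch was chosen by script as the 60 bases with the most differences, and 58 of its bases are identical.

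Many reads were counted on the copies, and whether these came from the genes' or the copies' own transcripts was not tested. Eno1b had 27034, 26758, 28215, 27933 and 35870.3 normalized reads in Mye-/- S8 to S12, against 32248, 27988, 36181 and 34726 in fl/fl S1 and S3 to S5, which is 49.6% of the sum of Eno1 and Eno1b over all libraries. Gm1840 had 7049, 7106, 6221, 7563 and 7528 in Mye-/-, against 9580.5, 6395, 7328 and 7522 in fl/fl, 31.8% of the sum with Gpi1. The labels do not say how reads that match a gene and its copy equally were assigned, so the level and the difference of Eno1 and Gpi1 are uncertain. Reads could also have been lost from Tpi1, Pgk1, Pkm and Ldha, whose copies matched no feature. The Pgk1 copies Gm5537 and Pgk1-rs7 match it at 100% over 1252 and 1255 bases. The levels of these genes are therefore uncertain as well. Eno1b by itself had a log2 fold change of -0.17 ± 0.14 (SE, limma adjusted p = 0.692), smaller in size than that of Eno1. With the copies added, Eno1 was at -0.30 (limma adjusted p = 0.491; DESeq2 adjusted p = 0.157) and Gpi1 at -0.16. The log2 ratio of Eno1 to Eno1b was -0.12, -0.09, -0.04, -0.06 and -0.20 in Mye-/-, against 0.45, 0.04, 0.10 and -0.02 in fl/fl. These groups did not overlap (difference -0.24, two-sided exact permutation p = 0.0159, the smallest that the regroupings of 9 libraries allow, and 0.0317 adjusted over both copy ratios), and the ratio was chosen after the values had been seen. The ratio of Gpi1 to Gm1840 overlapped between the groups (difference -0.07, exact permutation p = 0.429).

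**Figure D4:**
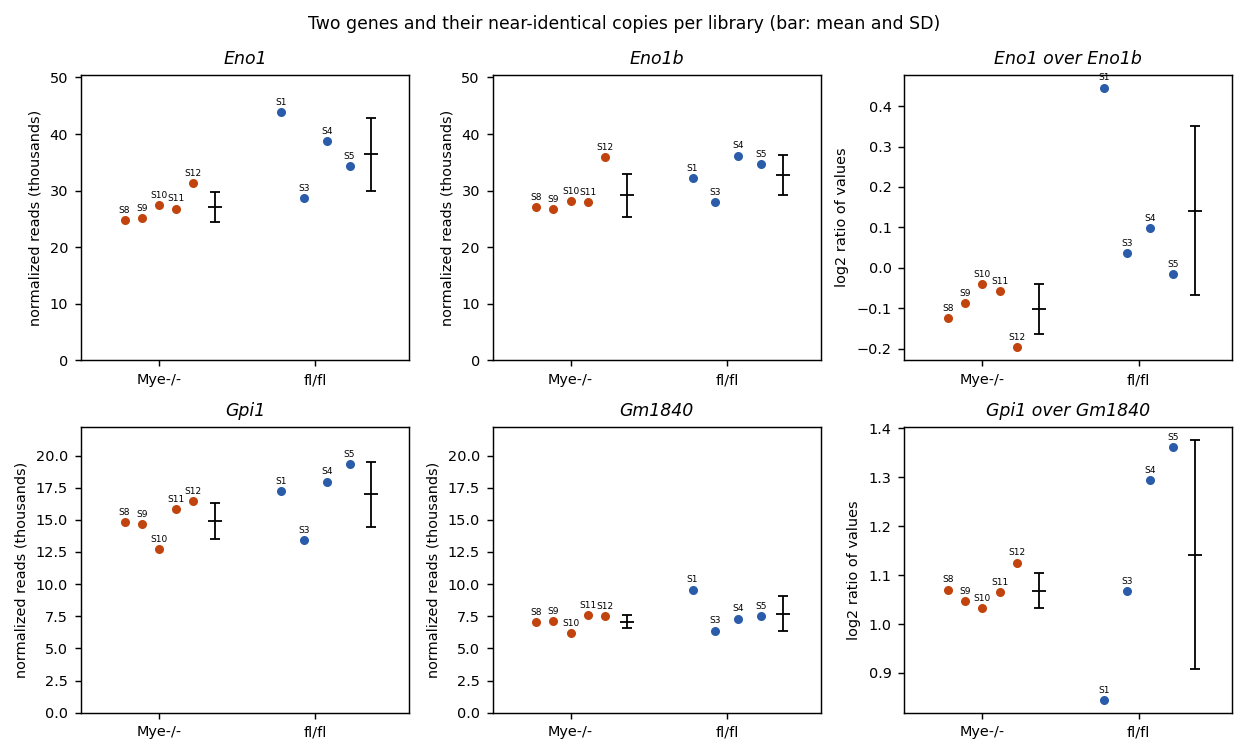
Normalized reads (in units of 1000) of Eno1 and Gpi1 (left), of their near-identical copies Eno1b and Gm1840 (middle) and the log2 ratio of gene to copy (right), 1 point per library with Mye-/- left of fl/fl; bars are mean and SD. The ratio of Eno1 to Eno1b is between -0.20 and -0.04 in Mye-/- and between -0.02 and 0.45 in fl/fl.

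After centring each gene on its genotype mean, Pearson's r between 2 genes over the 9 libraries was positive for 43 of 45 pairs, with a median of 0.67. The fl/fl libraries, which spread more, weigh most in this value. Within the 5 Mye-/- libraries alone, r was negative for 14 of the 45 pairs, among them all 9 pairs with Pfkl, and within the 4 fl/fl libraries it was negative for 4 pairs, all of them with Hk2. All genes of a library share its size factor and depth, so this is a description. Over the 9 libraries, Pgk1 and Ldha were the closest pair (r = 0.92), followed by Aldoa and Eno1 (r = 0.92) and by Hk1 and Tpi1 (r = 0.91). Hk2 had the lowest r to the mean of the other 9 genes, 0.21, where the others had 0.61 (Eno1) to 0.91 (Tpi1). Within the Mye-/- libraries Hk2 was not apart from Ldha (r = 0.88) or Pgk1 (r = 0.80), and 5 libraries are too few to read more from these values. In fl/fl S1, the library with the most Pgk1, Hk2 was at its lowest. Among 6753 named features with a mean of at least 500, the mean centred profile of the 10 genes was most like that of Copg2, a coat protein subunit of transport vesicles (r = 0.98), Rbpj, the DNA-binding factor of the Notch pathway (r = 0.98), the actin-severing gene Cfl2 (r = 0.96), Basp1, a membrane-associated protein gene (r = 0.96), and Gapdh (r = 0.96). Gapdh, which encodes the glycolytic enzyme between Tpi1 and Pgk1, was not among the genes chosen here.

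The promoters of the closest pair, Pgk1 and Ldha, and of Hk2, which had the lowest pooled r, are shown because the core motif of hypoxia response elements, to which HIF-1 binds, occurs in each. They are the 250 bases before the RefSeq start on GRCm38.p6, 5′ to 3′ on the gene's strand, with each match to ACGTG or GCGTG on either strand in capitals.
Pgk1, chrX:106186850-106187099, plus strand: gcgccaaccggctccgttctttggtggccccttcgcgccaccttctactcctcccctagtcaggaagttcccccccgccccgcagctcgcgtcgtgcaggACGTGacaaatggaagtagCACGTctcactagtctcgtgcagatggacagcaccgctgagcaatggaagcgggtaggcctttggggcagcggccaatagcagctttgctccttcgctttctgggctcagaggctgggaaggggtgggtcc
Ldha, chr7:46845554-46845803, plus strand: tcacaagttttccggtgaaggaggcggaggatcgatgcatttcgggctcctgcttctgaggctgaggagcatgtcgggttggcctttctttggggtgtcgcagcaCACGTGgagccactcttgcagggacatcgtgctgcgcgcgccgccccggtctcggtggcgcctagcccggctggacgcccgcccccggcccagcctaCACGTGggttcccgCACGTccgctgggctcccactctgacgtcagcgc
Hk2, chr6:82774455-82774704, minus strand: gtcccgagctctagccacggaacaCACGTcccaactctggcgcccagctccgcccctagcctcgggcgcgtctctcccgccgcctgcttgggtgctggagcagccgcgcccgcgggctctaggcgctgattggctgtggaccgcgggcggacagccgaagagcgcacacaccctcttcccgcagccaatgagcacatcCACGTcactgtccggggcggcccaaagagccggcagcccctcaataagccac
At the start shown, Ldha had 5 matches, of which 4 lie in its 2 copies of the palindrome CACGTG (the E-box read by MYC and related factors), and Pgk1 and Hk2 had 2 each. The other RefSeq start of Ldha, which is not shown, had 1 match and no CACGTG. All 10 genes were in the RefSeq promoter table, with 17 starts. A match occurred at 12 of these starts and in 38.6% of all 32851 promoters of the table. Neighbouring starts of Aldoa and of Eno1 share the same matches, so the 12 are not independent. By gene, 8 of the 10 had a match at any start, a count not comparable with the share of single promoters. Gpi1 and Tpi1 had none in this window. A match of these letters is not a binding site.

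The balance between isozymes was compared within libraries as log2 ratios of normalized reads, in which size factors cancel and gene length does not. Of 10 pairs listed, 9 had both genes above the filter, and none differed between the genotypes after adjustment over the 9 pairs (two-sided exact permutation tests, smallest adjusted p = 0.333). Hk3, a hexokinase of myeloid cells, stood above Hk1 per length, at 1591 normalized reads per kb in Mye-/- and 1629.6 in fl/fl, where Hk1 had 889 per kb in Mye-/- and 1153 in fl/fl. The log2 ratio of Hk3 to Hk1 was 0.31 ± 0.16 in Mye-/- and -0.08 ± 0.30 in fl/fl (exact permutation p = 0.0794, adjusted 0.333). The log2 ratio of Hk2 to Hk1 was 0.05, -0.48, -0.12, -0.15 and -0.21 in Mye-/-, against -1.14, -0.41, -0.10 and -0.10 in fl/fl (exact permutation p = 0.429, adjusted 0.592). S1 was the library with the least Hk2 relative to Hk1. Pfkp, the platelet-type phosphofructokinase subunit, had a log2 ratio to Pfkl of -0.16 ± 0.18 in Mye-/- and -0.27 ± 0.22 in fl/fl. The muscle-type subunit Pfkm, the brain-type aldolase Aldoc and the lactate dehydrogenase B subunit Ldhb had few reads, with log2 ratios to Pfkl, Aldoa and Ldha of -4.62, -9.23 and -7.03 in Mye-/- and -5.73, -8.94 and -7.69 in fl/fl. The log2 ratio of the lactate exporter gene Slc16a3 to the related Slc16a1 was 3.92 ± 0.28 in Mye-/- and 3.60 ± 0.19 in fl/fl (exact permutation p = 0.111, adjusted 0.333). Pklr, the pyruvate kinase gene of liver and red cells, had 37.3 normalized reads in Mye-/- S10, the library with the most hepatocyte transcripts, and 0 in the other 8 libraries.

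Of 100 tested genes in 7 lists of linked pathways, 0 passed the limma test over all features, which called 0.0196% of the features tested. A log2 fold change below 0 was found for 45.4% of all features and for 51.9% of those with a mean of at least 1000. Among the other enzymes of the glycolytic steps, 6 of 9 tested were lower and 3 higher (median log2 fold change -0.13). Pgam1, the phosphoglycerate mutase gene, had 14793 ± 2544 normalized reads in Mye-/- (SD, n = 5) and 17829 ± 5355 in fl/fl (SD, n = 4), and Gapdh had 13607 ± 852 in Mye-/- and 15373 ± 2406 in fl/fl. Gapdh has 77 near-identical copies in the annotation, so reads could have been lost from it. Transporters of glucose and lactate were 5 lower and 4 higher (median -0.06). Slc2a1, the main glucose transporter of activated macrophages, had 6149, 6090.4, 5959.7, 4614 and 6849.9 in Mye-/-, against 4201, 4562, 4372 and 9450.2 in fl/fl, where only S5 was high. Bsg, the chaperone of lactate transporters, averaged 10765 in Mye-/- and 13077 in fl/fl (limma adjusted p = 0.523).

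Regulators showed no common direction, with 7 of 18 lower and 11 higher (median 0.01). Pfkfb3 and Pfkfb4 make fructose 2,6-bisphosphate, the activator of phosphofructokinase. Pfkfb4 had 993, 1791, 1415, 1262 and 1362 normalized reads in Mye-/-, against 511, 459.7, 1085 and 941 in fl/fl. Pfkfb3 had 3385, 3058, 2558, 2344 and 2842 in Mye-/-, against 1193, 1321, 1731 and 3426 in fl/fl. Most Mye-/- values of both were above most fl/fl values, in the direction opposite to the 10 enzymes, with log2 fold changes of 0.94 ± 0.27 for Pfkfb4 and 0.69 ± 0.24 for Pfkfb3 (SE, limma adjusted p = 0.256 and 0.332). Egln1, a prolyl hydroxylase that marks HIF-1 for destruction and is itself a HIF target, averaged 2821 ± 425 in Mye-/- and 4186 ± 895 in fl/fl (adjusted p = 0.289), and Hif1a averaged 7119.6 ± 964 in Mye-/- and 7336 ± 2585 in fl/fl (adjusted p = 0.992). Other hypoxia-induced genes were 8 lower and 5 higher of 13 (median -0.05), with Higd1a at 1763 in Mye-/- and 2715 in fl/fl and Vegfa, the endothelial growth factor, at 11991 in Mye-/- and 8587 in fl/fl (limma adjusted p = 0.348 and 0.45).

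For the pathways that branch from glycolysis and follow it, the counts below compare with the 45.4% of all features, and 51.9% of those with a mean of at least 1000, that had a log2 fold change below 0; no test over the lists was made. Of 12 genes of the pentose phosphate pathway, which makes NADPH and ribose from glucose 6-phosphate, 11 were lower (median -0.22). Tkt, the transketolase gene, had 17022, 19866, 17742, 18794 and 23265 normalized reads in Mye-/-, against 31099.8, 20917, 30369 and 23757 in fl/fl (log2 fold change -0.45 ± 0.15 SE, limma adjusted p = 0.317). Its 2 lowest fl/fl values, in S3 and S5, were within or near the Mye-/- range. Of 30 genes for pyruvate entry and the tricarboxylic acid cycle, 25 were lower (median -0.21), and Dlst, a subunit of the 2-oxoglutarate dehydrogenase complex, was higher at an unadjusted limma p of 0.0411 (adjusted p = 0.456). Suclg1, a subunit of succinyl-CoA ligase, had 1611, 1664, 1656, 1703 and 1559.6 in Mye-/-, against 2752, 2064, 2271 and 2455 in fl/fl, and Mdh1, the cytosolic malate dehydrogenase, averaged 4259 ± 627 in Mye-/- and 5548 ± 266 in fl/fl. In both, all 5 Mye-/- values lay below all 4 fl/fl values, which was so for 1.6% of all features and 3.17% of those with a mean of at least 1000. DESeq2 called Suclg1 (adjusted p = 0.0377; limma adjusted p = 0.26), where it called 1.14% of features as lower. For gluconeogenesis and glycogen, 6 of 9 genes were lower (median -0.07), among them the glycogen phosphorylase Pygl, at 11643 ± 1212 in Mye-/- and 14587 ± 3202 in fl/fl (limma adjusted p = 0.47).

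**Figure D5:**
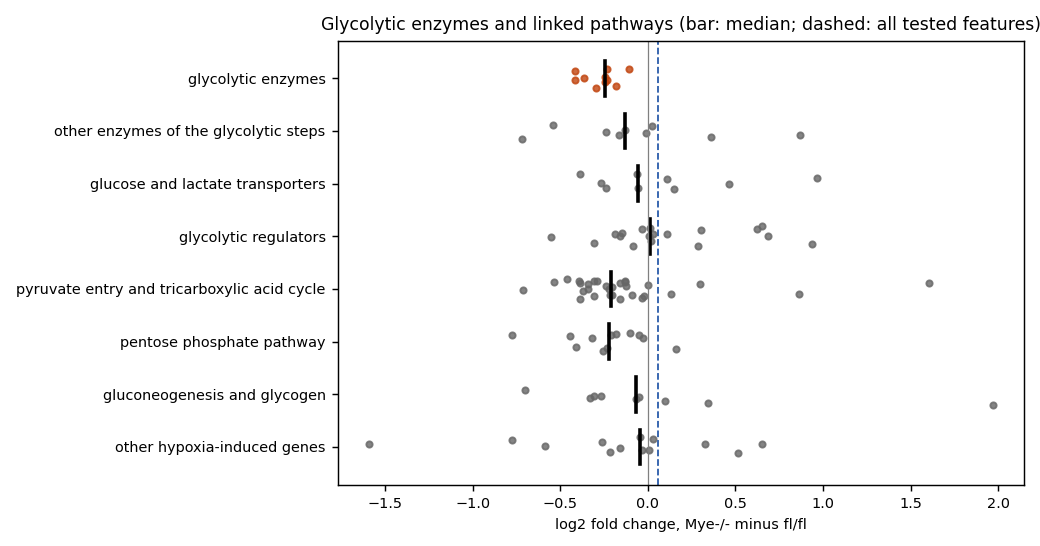
Log2 fold changes (Mye-/- minus fl/fl) of the 10 glycolytic enzyme genes (top row) and of the tested genes in 7 linked lists, 1 point per gene, spread vertically at random within a row; the black bar is the list's median and the dashed line the median of all tested features (0.06). The medians of the glycolytic enzymes (-0.24), the pentose phosphate pathway (-0.22) and the tricarboxylic acid cycle (-0.21) lie left of the others.

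The summed levels of markers of other cells overlapped between the genotypes in every list except that of Kupffer cells, and no sum was tested. The sum of the 8 macrophage markers did not overlap either, at 378542 to 476657 normalized reads in Mye-/- and 509518 to 631973 in fl/fl. Its largest part was the Lyz2 feature, whose groups did not overlap. The summed level of 9 neutrophil markers was 14886 to 38965 normalized reads in Mye-/- and 28355 to 49351 in fl/fl, and Ly6g, which defines them, had at most 1.19 normalized reads in any library. That of 8 recruited-monocyte markers was 580692 to 945423 in Mye-/- and 562807 to 842013 in fl/fl, and that of 7 Kupffer cell markers 20947 to 31837 in Mye-/- and 10532 to 20939.7 in fl/fl. The Kupffer sum barely failed to overlap, with 20947 as the lowest Mye-/- and 20939.7 as the highest fl/fl value. It was mostly Id3, which did overlap, with 20696 in Mye-/- S9 and 20933 in fl/fl S3 (limma adjusted p = 0.191). Hepatocyte markers summed to 1305 to 12898 in Mye-/-, highest in S10, and 603 to 1920.4 in fl/fl. Erythroid and platelet markers summed to 2654 to 6901 in Mye-/- and 5908 to 35204 in fl/fl, highest in S3. Sums for endothelial cells (at most 695 in Mye-/- and 1234 in fl/fl), stellate cells and fibroblasts (125 in Mye-/- and 225 in fl/fl), lymphocytes (524 in Mye-/- and 568 in fl/fl) and dendritic cells (1339.5 in Mye-/- and 559.97 in fl/fl) were low, with the stellate markers Lrat and Reln and the dendritic markers Xcr1 and Siglech at 0 in every library. The part of these cells in the glycolytic differences was not tested.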

How the data were processed

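RNA-seq libraries of 9 samples were grouped by genotype from the labels. The deposited values are a normalized signal: per the submitters' processing notes, which name STAR 2.4.0, DESeq and mm10, and from the values themselves, they are gene read counts that the authors scaled with a size factor for each library. The sources used here do not give the handling of strand, duplicates and multiply mapping reads. Whole reads were recovered from the deposited signal (100% of values within 0.01 of a whole number).

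The main test was limma 3.58.1 with a trend, on log2(value + 1) of the 15288 features with at least 10 normalized reads in at least 4 libraries, without covariates, adjusted by Benjamini-Hochberg over all of them (threshold 0.05). For low genes, a fold change on this scale can differ from that of the group means, because single libraries near 0 weigh heavily. Slc2a3 had a log2 fold change of 0.97, with means of 334 in Mye-/- and 279 in fl/fl, where S3 had 14.3. edgeR 4.0.16 and DESeq2 1.42.0 were run on the whole reads as alternatives. Isozyme and copy ratios were tested by two-sided exact permutation (SciPy 1.17.1). Near-identical copies were searched with BLAST 2.17.0 in GENCODE M21. Each copy was matched to a table feature by start-to-end interval, with the shared bases at least 0.8 of the bases spanned by both. Promoters are from RefSeq. The isozyme pairs and the 5 genes of most similar profile are named beside the 10 genes. Further names were taken from the 4 genes with the smallest p of each linked list and from markers with a mean of at least 500. Not every such gene or marker is named. Among those left out, Idh3a was lower (log2 fold change -0.71, limma adjusted p = 0.295) and Kdm3a higher (0.51, adjusted p = 0.45). Hif1a, Pklr, Dlst and Ly6g were added after their values were seen. The genes and lists were chosen with earlier results of these data known. The labels do not say outright that each library is a separate mouse, so p-values measure the spread between these samples. Counting error at 33383559 to 46489349 reads per library is small for these genes.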

Additional observations from a re-analysis of the deposited data

Results flagged for a closer look

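Values that stood far from the rest of their group were looked for in 38 groups of 4 or 5 libraries, where chance marks about 1 in 20, and 2 were found. Hk2 in Mye-/- S8 had 4553 normalized reads, far from the 3527 to 3773 of the other Mye-/- libraries. The log2 ratio of Slc2a3 to Slc2a1, the glucose transporter genes, was -8.22 in fl/fl S3, where Slc2a3 had 14.3 normalized reads and the other fl/fl libraries had 290 to 460.3.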

How the results depend on the processing

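Across 26 alternatives, 9 or 10 of the 10 glycolytic genes were lower in Mye-/-, and 9 of them kept their direction in every one. DESeq2 called 1 of the genes, Eno1 (log2 fold change -0.43), and the other alternatives called 0. Hk2 turned to 0.023 in the fit with an age term and to 0.023 for the 11-week-old mice alone. Both fits give the same fold changes for the 10 genes, because all 10-week-old mice were Mye-/-, so they are not separate checks. With 1 library left out, Hk2 ranged from -0.34 (without fl/fl S1) to 0.086 (without fl/fl S5), with 0.045 without fl/fl S4. The number of features called, 3 in the limma test, was 17 with a pseudocount of 8, 6 with TMM scaling, 8 with quantile normalization, 21 without the trend, 5 with array weights, 123 with DESeq2, 0 in the fit with an age term and 1 for the 11-week-old mice. Leaving out 1 library gave 0 (without S8 or S10) to 20 (without S5). Alternatives added after seeing the data gave 9 without fl/fl S1 and S3, 0 with a term for detected features and 140 with DESeq2 without independent filtering. The ratio of Pfkfb4 to Pfkfb3 turned to -0.094 for the 11-week-old mice, Hk2 to Hk1 to -0.081 without S1 and S3, and Slc2a3 to Slc2a1 to -0.20 without S1 and S3; the last ranged from -0.25 (without S3) to 1.28 with 1 library left out. The cause of these shifts was not tested. No paired analysis was possible because the groups share no replicate numbers. The 10-week-old mice were all Mye-/-, so an age effect rests on 2 Mye-/- libraries of 11 weeks. With 4 and 5 libraries, a ratio cannot give an exact p below 0.0159.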
